A study of Mus musculus with 6 samples.

Results

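Immediate early genes are switched on within minutes of a stimulus, before any new protein is needed, and 10 of them were followed here in isolated mouse alveolar type II cells: the AP-1 subunit genes Fos, Fosb, Jun and Junb, the transcription factor genes Egr1, Atf3 and Nr4a1, and the genes Ier2, Ier3 and Dusp1. Members were chosen by name, and each was read from every probe set annotated to that gene alone. This gave 11 probe sets for 10 genes, of 45101 probe sets and 18193 genes on the array. Jun had 2 probe sets and each other gene had 1, and where a single value is given for a gene it comes from its brightest probe set. All 11 probe sets lay above the low-signal limit on at least 3 arrays.

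The study compared type II cells from mice lacking Stat3 in the respiratory epithelium with cells from littermate controls, using 3 arrays per group. Stat3Δ/Δ cells came from mice carrying SP-C-rtTA, (tetO)7CMV-Cre and the Stat3flx/flx allele, in which the surfactant protein C promoter drives rtTA, doxycycline then turns on Cre, and exon 21 of Stat3 is removed. The sources used here differ on the control genotype. The source label of the controls gives the SP-C-rtTA and (tetO)7CMV-Cre transgenes with no floxed allele, their description field names the line with all 3 alleles, and the study's methods describe littermates with Stat3flx/flx and 1 of the transgenes. Doxycycline was in the dam's food from embryonic day 0 to postnatal day 25. Mice were 8 weeks old, groups were matched for sex and age, and each array holds RNA from the pooled cells of 3 mice. The lungs were digested with collagenase and the cells enriched by differential plating. Per the labels the pellets were homogenized 2 hours after isolation, whereas the methods state that mRNA was taken immediately, so the time between digestion and lysis is not settled. No array was made from undigested lung, and the rise of these genes during isolation was not measured.

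Early response genes are known to be induced by enzymatic digestion of tissue, by growth factors and by stress, through MAP kinases acting on serum response factor and on CREB. Their mRNAs are short-lived, since AU-rich elements in many of them recruit decay factors such as Zfp36. Fos and Jun proteins pair through leucine zippers to form AP-1, while Dusp1 removes phosphate from MAP kinases and so ends the signal that induced it. Fos and Junb are also known as genes that cytokine-activated STAT3 can switch on.

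The sequences just upstream of 4 of these genes are shown because they carry the cAMP response core through which CREB family factors act. They come from RefSeq on build GRCm38.p6 and run through the 250 bases before the annotated transcription start, 5′ to 3′ on the strand of the gene. Capitals mark TGACG on either strand, so that CGTCA is the same core read on the opposite strand, and in Dusp1 the longer run of capitals is the full palindrome TGACGTCA. The windows are chr8:84978749-84978998 on the minus strand for Junb, chr12:85473640-85473889 on the plus strand for Fos, chr17:26508473-26508722 on the minus strand for Dusp1 and chr15:101266596-101266845 on the plus strand for Nr4a1.
Junb: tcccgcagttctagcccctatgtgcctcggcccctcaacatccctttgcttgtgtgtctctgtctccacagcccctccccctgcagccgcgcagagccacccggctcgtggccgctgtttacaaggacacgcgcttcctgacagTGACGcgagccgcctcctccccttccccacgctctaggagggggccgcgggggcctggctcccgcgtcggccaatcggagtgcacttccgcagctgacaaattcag
Fos: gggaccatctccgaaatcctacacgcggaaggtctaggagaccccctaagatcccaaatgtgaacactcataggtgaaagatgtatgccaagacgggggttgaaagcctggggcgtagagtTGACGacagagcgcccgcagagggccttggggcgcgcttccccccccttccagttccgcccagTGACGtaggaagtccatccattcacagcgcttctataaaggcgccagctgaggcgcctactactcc
Dusp1: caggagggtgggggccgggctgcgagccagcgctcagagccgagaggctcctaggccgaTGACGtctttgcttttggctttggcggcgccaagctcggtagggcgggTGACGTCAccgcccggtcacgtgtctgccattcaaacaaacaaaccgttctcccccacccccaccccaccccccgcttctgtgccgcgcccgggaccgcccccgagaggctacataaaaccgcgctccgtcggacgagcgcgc
Nr4a1: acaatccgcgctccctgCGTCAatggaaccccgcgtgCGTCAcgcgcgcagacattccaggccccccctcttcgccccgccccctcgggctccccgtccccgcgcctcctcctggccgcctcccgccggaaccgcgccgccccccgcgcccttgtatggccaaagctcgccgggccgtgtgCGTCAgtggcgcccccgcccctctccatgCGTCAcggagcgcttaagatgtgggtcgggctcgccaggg

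Windows for 8 of the 10 genes were searched on both strands, Ier2 and Egr1 not being used here. TGACG was present upstream of 6 of the 8 genes, Fos, Fosb, Junb, Atf3, Nr4a1 and Dusp1, and in 17.8% of 32851 promoter windows of the same length. Junb held 1 core, first base 106 bases before the start, Fos held 2, at 129 and 66 bases, and Nr4a1 held 4, at 233, 213, 69 and 40 bases. Dusp1 had 3, of which those at 143 and 140 bases overlap as TGACGTCA, a motif found in 1.55% of all windows and in none of the other 7 genes. GGGCGG, the GC box bound by Sp1, was present in 7 of the 8 windows (all but Junb) and in 32.7% of all. TATAA was found in Fos and Ier3 and in 22.8% of all. Exact matches to the AP-1 element TGANTCA, the STAT-type element TTCNNNGAA and the CArG box of serum response factor were in none of the 8 windows. They were in 6.75%, 7.02% and 1.47% of all windows. Variants that depart from these strings were not searched, so such sites may be present, and elements farther upstream were not searched either.

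**Figure D1:**
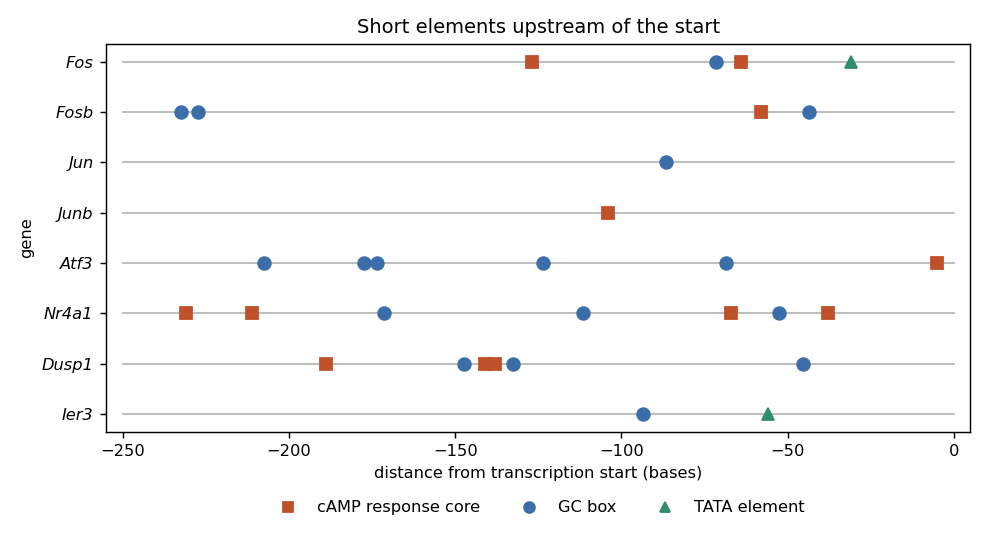
Position of 3 short elements in the 250 bases before the transcription start (x axis, bases from the start) for 8 immediate early genes (rows). Squares mark the cAMP response core on either strand, circles the GC box and triangles the TATA element. The core was present in 6 of the 8 genes and the GC box in 7.

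All 10 genes gave bright signals in all 6 pools. Values are MAS5 signals that the authors scaled to a trimmed mean of 1500 on each array, and the median probe set of an array lay between 282.8 and 381.3. The lowest member signal was 12603, for Junb in Stat3Δ/Δ pool 1, and the highest was 97813, for Fos in control pool 3. Only 612 of 18193 genes had a mean level as high as that of the dimmest member. Signal was thus high for every member in control and in Stat3Δ/Δ cells alike.

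Between the groups, the mRNAs of Junb, Egr1 and Ier2 were lower in Stat3Δ/Δ cells, each at 47.8 to 49.1% of the mean control signal, and lay past an unadjusted p of 0.05 and a 1.5-fold change. None of the 10 genes had, in addition, a false discovery rate (FDR) of at most 10%, the study's further threshold. The study applied that threshold to values normalized with the Robust Multichip Average (RMA) model, not to MAS5 signals. The study waived the FDR for mRNAs that changed in several probe sets, and of the 10 genes only Jun has more than 1, neither of which passed p and fold. The other 7 genes did not pass p and fold, and 0 of 10 were past them in the higher direction. The background for these counts was 5.55% of all genes past p and fold in the lower direction and 2.15% in the higher, or 4.22% and 4.14% of all probe sets. Among the 612 genes at least as bright as the dimmest member, 2.12% were past them lower and 1.14% higher. With the FDR threshold, 0.011% of genes and 0.00222% of probe sets were called. In pooled cells, fewer cells of a type and less mRNA per cell cannot be told apart.

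**Figure D2:**
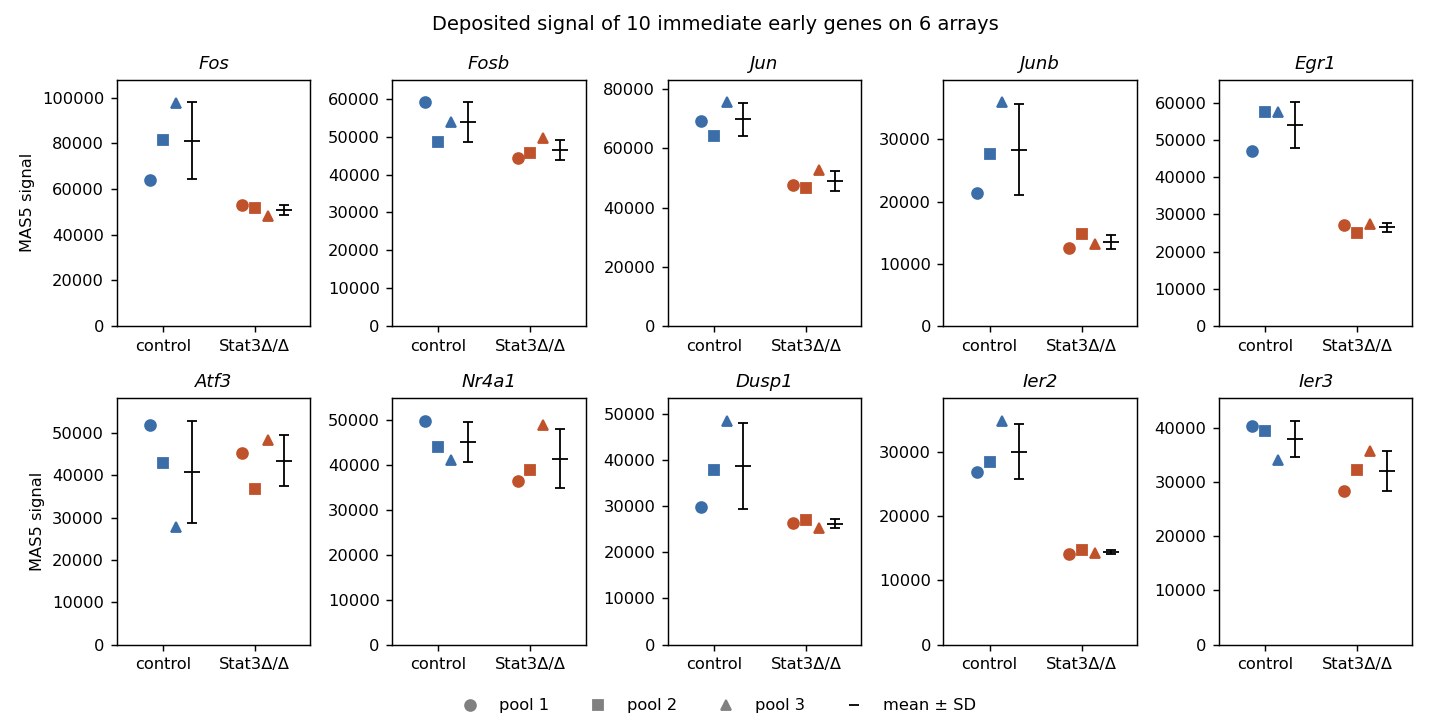
Deposited MAS5 signal (y axis, linear, starting at 0) for each of 10 genes in the 3 control and 3 Stat3Δ/Δ pools. Symbols mark pools 1, 2 and 3 and bars show mean ± SD over the 3 pools of a group. Fos, Jun, Junb, Egr1, Ier2 and Dusp1 were lower in each Stat3Δ/Δ pool than in any control pool, as were 9.15% of all genes. Fosb, Atf3, Nr4a1 and Ier3 overlapped.

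Among the AP-1 genes, Junb, whose product restrains as well as forms AP-1, differed most. Its signal was 12603, 14803 and 13202 in Stat3Δ/Δ pools 1, 2 and 3 and 21420, 27614 and 36001 in control pools 1, 2 and 3. The groups did not overlap, the Stat3Δ/Δ pools lay close together, and control pool 3 was highest. The log2 fold change was -0.95 (standard error 0.30, 95% interval -1.63 to -0.27, unadjusted p = 0.0122, adjusted p = 0.534 from limma). Mean log2 levels were 13.76 ± 0.13 in Stat3Δ/Δ and 14.71 ± 0.46 in control cells (SD, n = 3 pools each).

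Fos, the founding AP-1 partner of Jun, gave 52784, 51538 and 48313 in Stat3Δ/Δ pools and 64092, 81688 and 97813 in control pools. On the deposited signal each Stat3Δ/Δ pool was below each control pool, at 62.7% of the control mean, but after quantile normalization control pool 1 overlapped with the Stat3Δ/Δ pools. The log2 fold change of -0.50 (standard error 0.28, unadjusted p = 0.104 from limma) did not pass p and fold. It passed both with no normalization between arrays (-0.65), with arrays centred on their medians (-0.79) and without control pool 1 (-0.71). Fosb, a close relative of Fos, was nearly level: 44451, 45778 and 49554 against 59103, 48554 and 54012 in control pools. The highest Stat3Δ/Δ pool exceeded the lowest control pool, and the difference was -0.06 on the log2 scale with a 95% interval from -0.60 to 0.47.

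Jun was measured by 2 probe sets. The brighter read 47597, 46662 and 52796 in Stat3Δ/Δ pools against 69278, 64306 and 75577 in controls, and its groups did not overlap. The other read 47293, 48739 and 54409 against 52907, 60292 and 78000, where Stat3Δ/Δ pool 3 exceeded control pool 1. Both pointed downward, with log2 fold changes of -0.36 (standard error 0.24, unadjusted p = 0.164 from limma) and -0.17 (standard error 0.26, unadjusted p = 0.530). Neither passed p and fold, and the brighter did so only with arrays centred on their medians (-0.65).

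Of the other transcription factors, Egr1, a zinc finger protein induced by mitogens through serum response factor, was lower in Stat3Δ/Δ cells. Signals were 27206, 25070 and 27367 against 47013, 57600 and 57671, so that the lowest control pool stood well above the highest Stat3Δ/Δ pool. The log2 fold change was -0.91 (standard error 0.25, 95% interval -1.49 to -0.34, unadjusted p = 0.00643, adjusted p = 0.484 from limma). Atf3, a stress-induced member of the ATF/CREB family, showed no separation, with 45298, 36683 and 48455 in Stat3Δ/Δ and 51788, 42792 and 27771 in control pools. Control pool 3 was the lowest of all 6 and control pool 1 the highest in signal. Its log2 fold change was 0.24 (95% interval -0.41 to 0.89), and centring the arrays on their medians gave -0.012.

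Nr4a1, the orphan nuclear receptor Nur77, likewise overlapped, at 36507, 38924 and 48899 against 49891, 44117 and 41222. Its 4 cAMP response cores were the most among the windows searched. The difference was -0.02 on the log2 scale, and the 95% interval from -0.55 to 0.51 spans a decrease or an increase of less than 1.5-fold. The window printed for Nr4a1 precedes a start that lies inside a longer gene model.

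Among the remaining proteins, Ier2, a small nuclear protein of the early response, had the largest difference of the 10 genes in the fit over all 6 arrays. It read 14117, 14778 and 14267 in Stat3Δ/Δ pools and 26870, 28432 and 34876 in control pools. The Stat3Δ/Δ pools were nearly identical and the groups were far apart. On the log2 scale the difference was -0.97 (standard error 0.25, 95% interval -1.55 to -0.39, unadjusted p = 0.00475, adjusted p = 0.471 from limma). Ier3, a stress-induced regulator of cell survival, gave 28353, 32173 and 35775 against 40368, 39396 and 34105. On this scale Stat3Δ/Δ pool 3 exceeded control pool 3, whereas after normalization the groups did not overlap, and the log2 fold change was -0.16 (95% interval -0.69 to 0.37).

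Dusp1, the MAP kinase phosphatase whose window holds the full palindrome, read 26320, 27015 and 25132 against 29767, 37758 and 48491. Each Stat3Δ/Δ pool was lower than each control pool on the deposited signal, at 67.6% of the control mean, and overlapped with control pool 1 after normalization. The log2 fold change of -0.44 (standard error 0.29, unadjusted p = 0.162 from limma) did not pass p and fold except with arrays centred on their medians (-0.68).

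**Figure D3:**
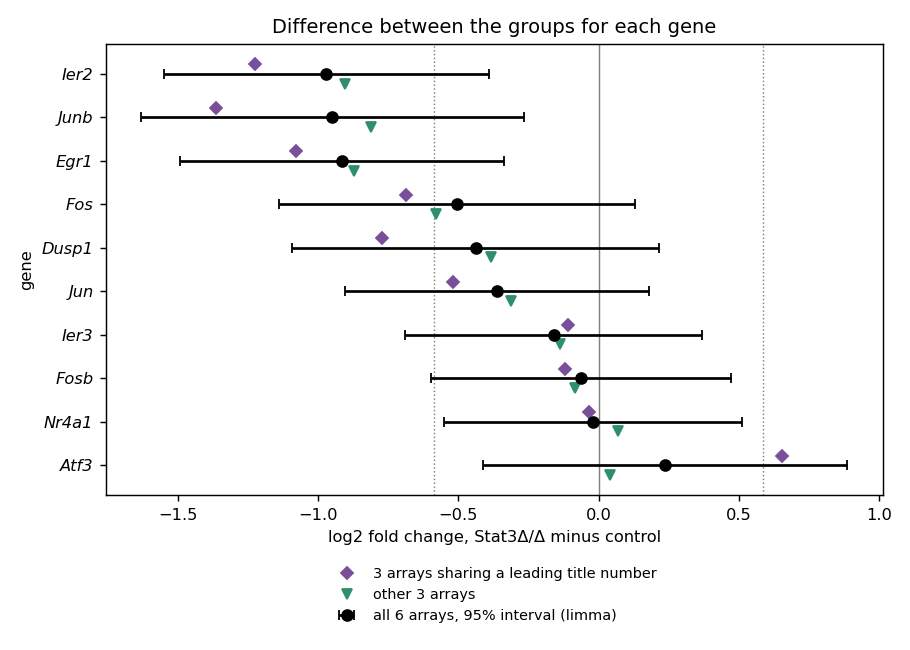
Log2 fold change, Stat3Δ/Δ minus control (x axis), for each of the 10 genes (rows). Circles with bars give the limma estimate over 6 arrays with its 95% interval, diamonds the difference within the 3 arrays with the same leading number in their titles, triangles the difference among the other 3, and dotted lines a 1.5-fold change. Ier2, Junb and Egr1 lay beyond the dotted line by all 3 estimates. Diamonds rest on 1 control pool and triangles on 1 Stat3Δ/Δ pool.

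Over the 10 genes, 9 log2 fold changes lay below 0 and the median was -0.40, whereas 59.3% of all genes lay below 0 with a median of -0.09. The 612 bright genes had a median of -0.04. Without normalization between arrays these medians were -0.52 for the 10 genes and -0.14 for the bright genes, and with arrays centred on their medians -0.66 and -0.28. After normalization 5 of the 10 genes (Jun, Junb, Egr1, Ier2 and Ier3) had every Stat3Δ/Δ pool below every control pool, compared with 10.2% of all genes and 10.3% of the 612 bright genes. On the deposited signal 6 did so (Fos, Jun, Junb, Egr1, Ier2 and Dusp1), against 9.15% of all genes. The normalized margin of Ier3 was narrow, with 15.07 in Stat3Δ/Δ pool 3 and 15.08 in control pool 3. The other Jun probe set overlapped on both scales. On neither scale did any of the 10 have every Stat3Δ/Δ pool above every control pool, which 4.23% of all genes did after normalization and 5.08% on the deposited signal. The 10 genes share inducers and were measured on the same pools, so they are not independent of one another.

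Each sample title holds several numbers after its letters, and what the leading one stands for is stated by no source used here. Control pool 3 has the same one as Stat3Δ/Δ pools 1 and 2, control pools 1 and 2 have another, and Stat3Δ/Δ pool 3 has its own. Within the pools that share it, the log2 difference was -1.36 for Junb, -1.08 for Egr1 and -1.23 for Ier2. Among the other 3 pools it was -0.81, -0.87 and -0.90, so the direction was the same in both comparisons, and each again exceeded 1.5-fold. Fos gave -0.69 and -0.58, Dusp1 -0.77 and -0.39, and Jun -0.52 and -0.31. The shared-number comparison rests on 1 control pool, which had the highest level of most members. The other comparison rests on 1 Stat3Δ/Δ pool, pool 3, which had the lowest level of all 6 for 5 genes. Its groups also differ in title number.

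The pools of a group were not alike. Control pool 3 had the highest normalized level of all 6 for 7 genes (Fos, Fosb, Jun, Junb, Egr1, Ier2 and Dusp1) and the lowest for Atf3. With each gene centred on its mean over the 6 arrays, the members averaged 0.07, 0.21 and 0.34 in control pools 1, 2 and 3. The corresponding averages in Stat3Δ/Δ pools 1, 2 and 3 were -0.16, -0.20 and -0.26. No Stat3Δ/Δ average thus reached that of any control pool, and Stat3Δ/Δ pool 3 had the lowest level of all 6 for 5 genes. Without control pool 3 the median log2 fold change of the 10 genes was -0.26 in place of -0.40, and Junb (-0.72), Egr1 (-0.81) and Ier2 (-0.82) still passed p and fold.

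The spread within groups also differed. The SD of the log2 level was smaller among Stat3Δ/Δ pools than among control pools for 9 of the 10 genes, Nr4a1 being the exception, and the 2 SDs of Ier3 were nearly equal. The median SD was 0.10 in Stat3Δ/Δ and 0.26 in control pools. Over all genes the medians were 0.34 and 0.32, and 47.7% of genes had the smaller SD in Stat3Δ/Δ cells. The control pools spanned 0.92 on the log2 scale for Junb, 0.82 for Dusp1, 0.72 for Atf3 and 0.67 for Fos. No test of this difference was made.

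**Figure D4:**
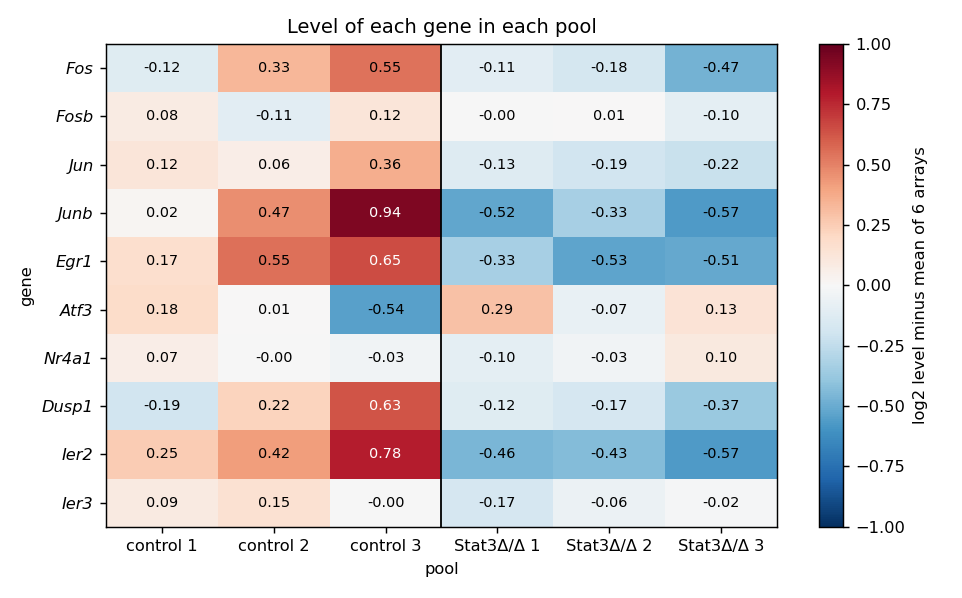
Normalized log2 level of each gene (rows) in each pool (columns) minus the mean of that gene over the 6 arrays, with blue below and red above the mean. Control pool 3 had the highest value for 7 genes and the lowest for Atf3, and the Stat3Δ/Δ pools lay close to each other.

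Other early response genes were examined from lists. Of 24 further early transcription factors and co-regulators, 6 were past p and fold lower and 1, Myc, higher, and the median log2 fold change was -0.29. Over all genes 5.55% were past p and fold lower and 2.15% higher, and the median was -0.09. Irf1, an interferon response factor, read 10727, 10042 and 12347 in Stat3Δ/Δ and 22858, 22704 and 22860 in control pools, so that each control pool was well above each Stat3Δ/Δ pool (log2 fold change -0.99, adjusted p = 0.449 from limma). Egr3, a relative of Egr1, gave 1565, 2378 and 2025 against 2609, 4276 and 5210 (-0.99). The Krüppel-like factors Klf10 (-0.84) and Klf2 (-0.81) were lower as well, and all 4 had groups that did not overlap. After normalization 10.2% of all genes were so separated in the lower direction, and these 4 were named for their large changes. Each of these 4 differences had the same sign within the pools sharing a title number, from -1.44 for Egr3 to -0.91 for Klf10, and among the other pools, from -0.90 for Klf10 to -0.42 for Klf2. With 1 pool left out at a time, 4 to 7 of the 24 were past p and fold lower, Irf1 each time. Egr3 was not past it without Stat3Δ/Δ pool 1 or control pool 3, Klf2 without control pool 3, and Klf10 without control pool 2. Myc was past it higher only without Stat3Δ/Δ pool 2 or control pool 3 and not under the title number block.

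Of 32 measured early response genes that encode other kinds of protein, 1 was past p and fold lower, Ccn2, a matrix-associated growth regulator (-0.77), none was higher, and the median was 0.08. These counts varied with the fit, with 5 lower using arrays centred on their medians, and 0 to 2 lower and 0 to 3 higher leaving 1 pool out. Ccn2 was past p and fold only without Stat3Δ/Δ pool 3 or control pool 3. With the title number as a block none was lower and 4 were higher, the cytokine and chemokine genes Ccl2, Cxcl1, Cxcl2 and Il6. Among 19 other bZIP genes none was past them lower and 2 were higher. These were Batf3, at 622, 240 and 270 against 63, 73 and 66, close to the pseudocount of 69.9 in controls, and Crem, a CREB family gene with inducible repressor isoforms, at 6539, 5917 and 4514 against 1691, 3562 and 3493. Their log2 fold changes were 1.49 and 0.98, and neither passed the FDR. Crem was not past p and fold without Stat3Δ/Δ pool 1 or 2 or control pool 1, nor with the title number as a block.

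Genes that start or end the response gave counts that are read against the 5.55% and 2.15% of all genes past p and fold. Of 19 measured kinases and serum response factor partners, Map2k2 (-0.62) and the very dim Map2k6 (-0.96) were past p and fold lower and none was higher. Neither was past it without Stat3Δ/Δ pool 1, without control pool 2 or with the title number as a block. None of 9 other dual-specificity phosphatases was past p and fold, the extremes being Dusp8 at 0.61 and Dusp9 at -0.38. Among 10 mRNA decay factors only Zfp36, which binds AU-rich elements and is itself an early response gene, was past p and fold: 23093, 27001 and 35284 in Stat3Δ/Δ against 40706, 46472 and 57933 in control pools (log2 fold change -0.69, standard error 0.28, unadjusted p = 0.0380 from limma). Its difference was -1.18 within the pools sharing a title number and -0.27 among the other pools. It was past p and fold only without Stat3Δ/Δ pool 3 or control pool 1 when 1 pool was left out, and not with the replicate number as a block. None of 10 heat shock genes known to move with tissue dissociation was past p and fold, from Dnaja1 at 0.50 to Hsph1 at -0.37. The medians of the kinase (0.05), decay (0.03), heat shock (0.06), bZIP (0.03) and other early protein (0.08) lists all turned below 0 with arrays centred on their medians. In that order they were -0.10, -0.16, -0.19, -0.13 and -0.14, where the median of all genes was -0.18.

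**Figure D5:**
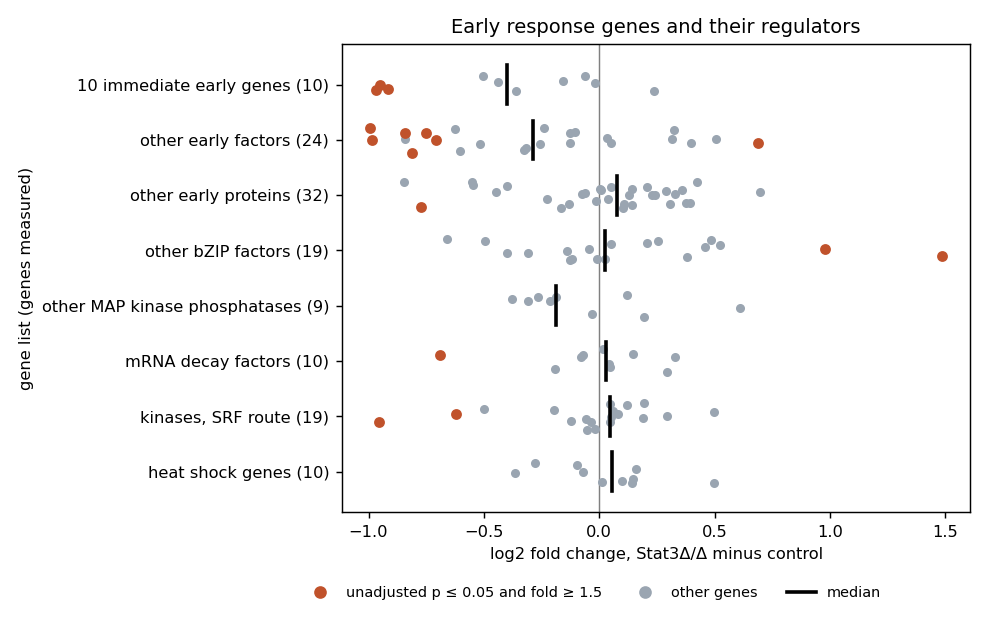
Log2 fold change, Stat3Δ/Δ minus control (x axis), of each measured gene (points) in 8 lists (rows, with the number measured). Red points were past an unadjusted p of 0.05 and a 1.5-fold change, and vertical bars give the list median. The 10 immediate early genes and 24 other early factors had medians of -0.40 and -0.29.

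Rab8a, Setd5, Hint3, Aqp4 and Egln1 were the genes whose levels over the 6 arrays followed the mean of the 10 most closely, with Pearson r from 0.976 to 0.993 among 9087 candidates at or above the median level. These values describe 6 arrays and carry no test. Of these, Aqp4, a water channel, was past p and fold lower (-0.85).

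Stat3 itself was lower in Stat3Δ/Δ pools on its brightest probe set, at 26285, 20128 and 25650 against 49489, 41544 and 35080 (log2 fold change -0.71, unadjusted p = 0.0234, adjusted p = 0.572 from limma). A second probe set gave -0.80 and the remaining 2, far dimmer, overlapped, at -0.05 and 0.60. The brightest probe set kept 57.1% of the control signal, whereas the study cites a far lower Stat3 mRNA level from earlier work on these mice. Control pool 3, with the highest level of most immediate early genes, had the lowest Stat3 signal of the controls.

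Some markers of other cell types differed between the groups. By staining, the study found no difference between the groups in the purity of the isolates. Type II markers had a median of -0.04 over 10 genes, with Abca3, a lipid transporter of surfactant storage, past p and fold lower (-0.73, but not without Stat3Δ/Δ pool 1 or control pool 2 or 3), and their summed signal ranged from 678602 to 909249 in Stat3Δ/Δ and from 821347 to 908025 in control pools. Of 9 fibroblast markers 5 were past p and fold lower (sums 5882 to 11472 against 16762 to 33550), and so were 3 of 7 ciliated cell markers (6647 to 8254 against 10725 to 18001) and 1 of 9 endothelial markers (16539 to 20988 against 22111 to 26315). In each of these lists 2 markers lay above 0. All 11 macrophage markers lay above 0 with 2 past p and fold higher (149348 to 217902 against 117465 to 132716). Of 8 neutrophil markers 4 were past p and fold higher (31438 to 36397 against 19322 to 24339), while 3 lay below 0, the lowest being Ltf at -0.87. Of 8 lymphocyte markers 1 was past p and fold higher (13149 to 22131 against 7744 to 29714). Of 5 airway secretory markers none was past either way (315518 to 444843 against 414287 to 514084). The pools sharing a title number hold 1 control pool and the other pools 1 Stat3Δ/Δ pool, so both comparisons are given for the markers as values only. The fibroblast median was -0.37 within the pools sharing a title number and -1.54 among the other pools. The ciliated cell medians were -0.13 and -0.82, the neutrophil medians 0.44 and 0.67, and Ltf gave -1.28 and 0.20. With 1 pool left out, calls ran from 4 to 6 for fibroblast, 2 to 4 for ciliated cell, 0 to 2 for endothelial, 0 to 3 for macrophage and 2 to 4 for neutrophil markers. They were 0 for endothelial markers without Stat3Δ/Δ pool 1 or 2 or control pool 2 or 3, and 0 for macrophage markers without Stat3Δ/Δ pool 2 or control pool 2, and with arrays centred on their medians. Neutrophil calls were 2 without control pool 1, and Ltf was past p and fold lower without Stat3Δ/Δ pool 3 and with array weights. The lymphocyte call, Gzma, was lost without Stat3Δ/Δ pool 2 or 3 or control pool 1 or 3. The fibroblast marker Mfap4 and the ciliated cell marker Spag6 had mean signals below the pseudocount in both groups, and no other marker did. The part of these cells in the lower Junb, Egr1 and Ier2 levels was not tested.

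RNA quality probes differed too. The log2 ratio of 3′ to 5′ Actb signal was 0.42, 0.34 and 0.42 in Stat3Δ/Δ pools and 0.81, 0.64 and 0.47 in control pools, and that of Gapdh was -0.49, -0.30 and -0.44 against 0.27, 0.03 and -0.24. Each Stat3Δ/Δ pool was below each control pool on both. Control pool 3, where Junb, Egr1 and Ier2 were highest, had the control ratio nearest to those of the Stat3Δ/Δ pools. The part of RNA quality in the differences was not tested.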

How the data were processed

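Type II cell RNA from 3 pools per group was hybridized to MOE430 arrays. The authors deposited MAS5 signal intensity values, 1 linear value per probe set, scaled to a trimmed mean (2% trimmed) of 1500 on each array. The study's own gene list was made from RMA values, so its counts and those given here rest on unlike values. After adding a pseudocount of 69.9, equal to percentile 20 of the signals on all arrays, values were converted to log2 and quantile normalized over 45101 probe sets. After 64 control probe sets were left out, 45037 were fitted with limma 3.58.1 in R 4.3.3 (2 groups, moderated test, Benjamini-Hochberg adjustment). Fold changes are on the log2(signal + pseudocount) scale and understate the change of dim genes.

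GEO's platform annotation gave 34945 probe sets 1 gene, 932 several and 9160 none. The brightest single-gene probe set stood for each of 18193 genes, and adjusted p-values for a gene are over these. Being called meant p at most 0.05, FDR at most 10% and at least a 1.5-fold change, after the study's thresholds without its waiver of the FDR for mRNAs changed in several probe sets, and "past p and fold" leaves out the FDR. Named were all members and Stat3. From every other list came up to 4 genes past p and fold with the largest change (with none past, up to 2), and the 5 genes most like the members in level. Named outside the rule, after their values were seen, were Myc, Ccl2, Cxcl1, Cxcl2, Il6, Ptgs2, Rnd3, Tnfaip3, Ltf, Mfap4 and Spag6. Members and lists were chosen with earlier results of these data known.

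Groups came from the sample titles. The p-values rest on the spread between 3 pools per group, moderated by that of all probe sets. Without moderation the standard error would be 0.065 in place of 0.23 for Nr4a1 and 0.27 in place of 0.30 for Junb. Pools with the same replicate number did not deviate together (r from -0.24 to -0.01), so the numbers were not taken as pairs. The alternatives were the pseudocount, normalization, low-signal filter, an ordinary t-test without moderation, variance trend and array weights. Blocks on the replicate and title numbers, the mean of probe sets, and each pool left out were also run. The fit was tested on simulated data. Promoters (RefSeq, GRCm38.p6) were searched with Python 3.11.15.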

Additional observations from a re-analysis of the deposited data

How the results depend on the processing

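The 3 genes past p and fold, Junb, Egr1 and Ier2, kept their direction in every alternative run, and stayed past it without each pool and under each other setting with tests on 3 against 3 pools. The title number block and the shared-number arrays alone estimate the difference from 1 control pool against 2 Stat3Δ/Δ pools, the lone pool being assumed to vary like the others, and are given as values only. The members past p and fold numbered 6 with arrays centred on their medians, 4 with no normalization between arrays, and 3 to 4 with 1 pool left out (Fos was the addition without control pool 1). The median log2 fold change of the 10 genes was -0.52 with no normalization, -0.66 with arrays centred, -0.60 with the title number as a block, -0.64 on the shared-number arrays alone and -0.49 to -0.26 with 1 pool left out, the smallest being without control pool 3. Atf3 turned to -0.012 with arrays centred. Nr4a1 ran from -0.078 to 0.023 with 1 pool left out, turning above 0 when Stat3Δ/Δ pool 1 (0.023) or control pool 1 (0.0087) was dropped.

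Called over all features were 1 probe set and 2 genes, from 3767 probe sets and 1400 genes past p and fold. Called probe sets and genes numbered 0 and 0 with no pseudocount and with the ordinary t-test. They numbered 11 and 6 with the pseudocount at the median signal, and 13 and 6 with a variance trend. With the replicate block they numbered 0 and 1, with 3 members past p and fold as before. Probe sets called were 2 with arrays centred, the low-signal filter or array weights, and calls ran from 0 to 1 for probe sets and for genes with 1 pool left out. Counts past p and fold were 1822 probe sets and 785 genes with the pseudocount at the median signal, and 2216 and 917 by the ordinary t-test. Of genes past p and fold 27.9% were higher, against 39.3% with no normalization, 18.8% with arrays centred, 45.7% with the title block and 47.6% on the shared-number arrays.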
